A study of Mus musculus with 6 samples.

Results

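The mitochondrial ribosomal protein genes were taken by name from the deposited expression table, as every gene called Mrpl or Mrps followed by a number, leaving out 5 entries with names that contain -ps, the mark of a pseudogene. The rule found 78 of the 54532 genes listed, 49 named for the large ribosomal subunit (Mrpl) and 29 for the small subunit (Mrps). They were measured by RNA-seq in 3 XCKO libraries of primary hepatocytes from mice that lack Xbp1 in hepatocytes (genotype Xbp1ΔHep), and in 3 XCON libraries from mice that carry the floxed allele (genotype Xbp1FL/FL). The mice had a C57BL/6 background, were 32 to 34 weeks old and had eaten a high-fat diet (HFD) for 26 weeks, so that no library came from lean mice. The sources used here name no Cre line and do not say whether XCON mice carried Cre. The labels give each library as 1 sample of its group, and do not say if it came from 1 mouse or a pool, so p-values cover only how these libraries vary, which may be technical.

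Mitochondria keep a small genome that encodes a few proteins of the respiratory chain and ATP synthase, and a ribosome of their own translates them. Its RNAs come from that genome, but all of its proteins are encoded in the nucleus, made in the cytosol and imported. Part of these proteins descend from bacterial ribosomal proteins and the rest were acquired in the mitochondrial line. By assignments from textbook knowledge, 47 of the 78 genes have a bacterial counterpart and 30 are mitochondria-specific. The remaining gene, Mrps36, is now placed in the 2-oxoglutarate dehydrogenase complex, and the products of Mrps18a and Mrps30 sit in the large subunit in spite of their names. Xbp1, the gene deleted in XCKO, codes for XBP1, which switches on genes of protein folding and secretion when unfolded proteins build up in the endoplasmic reticulum.

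Promoters of nuclear genes for mitochondrial proteins are known for sites of NRF1, of ETS-family factors such as GABP, and of YY1. RefSeq windows (GRCm38.p6) that end shortly after the start site were matched for 69 of the 78 genes. The 250 bases upstream of the start site are shown for 4 genes: 3 genes with higher counts in XCKO that carry, in turn, none of these motifs, NRF1 and ETS, and Mrpl18, the gene with the lowest fold change. Capitals mark matches, on either strand, to the NRF1 motif CGCATGCG, the ETS motif CCGGAAG and the YY1 motif AAGATGGCG, and also to 2 sequences bound in the unfolded protein response: TGACGTGG for XBP1, and the ER stress response element (ERSE), CCAAT and CCACG separated by 9 bases. Mrpl2 lies on the plus strand with its window at chr17:46645979-46646228, Mrpl9 on the plus strand at chr3:94443086-94443335, Mrpl27 on the plus strand at chr11:94653541-94653790 and Mrpl18 on the minus strand at chr17:12916092-12916341.
Mrpl2: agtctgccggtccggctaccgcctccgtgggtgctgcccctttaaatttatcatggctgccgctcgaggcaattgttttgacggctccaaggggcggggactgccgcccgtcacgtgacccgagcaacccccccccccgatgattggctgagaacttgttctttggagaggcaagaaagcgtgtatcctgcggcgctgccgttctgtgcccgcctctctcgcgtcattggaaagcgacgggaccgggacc
Mrpl9: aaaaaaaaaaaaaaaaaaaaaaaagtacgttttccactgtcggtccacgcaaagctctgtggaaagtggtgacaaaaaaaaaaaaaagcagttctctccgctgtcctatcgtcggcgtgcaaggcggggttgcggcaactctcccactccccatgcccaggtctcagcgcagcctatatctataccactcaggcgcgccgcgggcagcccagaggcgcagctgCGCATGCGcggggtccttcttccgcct
Mrpl27: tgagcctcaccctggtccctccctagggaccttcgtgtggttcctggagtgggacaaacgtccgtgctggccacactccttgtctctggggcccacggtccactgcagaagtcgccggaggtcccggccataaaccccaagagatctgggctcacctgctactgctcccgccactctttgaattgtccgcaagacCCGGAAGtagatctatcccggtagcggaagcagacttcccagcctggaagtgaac
Mrpl18: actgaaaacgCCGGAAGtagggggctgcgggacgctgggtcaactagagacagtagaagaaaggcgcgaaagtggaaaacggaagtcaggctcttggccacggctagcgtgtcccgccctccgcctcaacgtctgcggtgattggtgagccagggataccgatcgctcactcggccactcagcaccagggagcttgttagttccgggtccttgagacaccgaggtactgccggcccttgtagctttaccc
The NRF1 match of Mrpl9 begins 27 bases before the RefSeq start site. The ETS match of Mrpl27 begins 55 bases before its RefSeq start site and that of Mrpl18 240 bases before its own. For Mrpl18 this start lies 254 bases inside the gene as listed in the deposited table. The stretch shown for Mrpl18 thus falls within that listed gene.

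Over the 69 windows, the ETS motif was present in 24 (34.8%), against 17.8% of the windows of 10214 tested protein-coding genes. NRF1 matches were found in 7 windows (10.1%, against 3.77%) and YY1 matches in 8 (11.6%, against 3.06%). At least 1 of the 3 motifs was present in 34 windows (49.3%), against 23.0% of tested protein-coding genes. The SP1 motif GGGCGG was in 34 windows (49.3%), against 62.9%. No window held TGACGTGG, which 0.822% of tested protein-coding genes had, and none held the ERSE, which 0.176% had. A match of letters is not a bound site. In 18 of the 69 genes the RefSeq start lay more than 100 bases from the start in the deposited table.

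The libraries held 26477489 to 27240079 gene-assigned reads in XCKO and 23919355 to 26502456 in XCON. Xbp1 itself had 59.0, 39.3 and 67.4 CPM (counts scaled to a common library size with TMM factors, which allow for differences in library composition) in XCKO, against 171, 294 and 319 CPM in XCON (log2 fold change −2.24 ± 0.29 SE, adjusted p = 0.0084), counted over the whole gene. All 10 hepatocyte markers, among them the most abundant liver transcripts, were detected, and their summed level was 86950 to 117300 CPM in XCKO and 63490 to 84560 CPM in XCON. Reads of mitochondrially encoded genes made up 9.59%, 8.99% and 13.1% of the XCKO libraries and 22.8%, 9.79% and 9.3% of the XCON libraries, so that XCON 1 stood apart. Of 14873 genes that passed the filter on low counts, 775 (5.21%) were higher in XCKO and 603 (4.05%) were lower at a Benjamini-Hochberg adjusted p under 0.05 in edgeR's quasi-likelihood test, with a median log2 fold change of −0.05. All fold changes below are log2 of XCKO over XCON from that fit, with the SE, and adjusted p-values run over all tested genes.

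Mitochondrial ribosomal protein transcripts were higher in XCKO hepatocytes in 21 of the 77 genes tested (27.3%), against a background of 5.21% over all genes, and none was lower (background 4.05%). At an unadjusted p under 0.05, 52 of the 77 were higher (background 14.3%) and 1 was lower (background 15.4%), and other tests of the same counts gave 32 higher with DESeq2 (background 9.52%) and 19 with limma-voom (background 5.49%), with 0 lower in each. The fold change was positive in 74 of the 77, including 53 of the 56 that did not pass, and the median was 0.46 (interquartile range 0.34 to 0.71). Over all tested genes the interquartile range ran from −0.44 to 0.3, and 46.5% were positive. Every XCKO library lay above every XCON library in 52 of the 77, against 17.6% of all genes, and the reverse held for 1, against 18.1%. In bulk RNA, a change in the number of cells of a type and a change in the RNA per cell cannot be told apart.

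Summed over the genes, the level was 1501, 1616 and 1849 CPM in XCKO 1, 2 and 3 and 1229, 1066 and 1214 CPM in XCON 1, 2 and 3. The means were 1655 ± 180 CPM in XCKO and 1170 ± 90 CPM in XCON (SD, n = 3 each). The groups did not overlap, and XCKO 3 was the highest library. XCKO 3 was the highest of the 6 libraries in 64 of the 77 genes, against 19.4% of all tested genes and 72 of 81 cytosolic ribosomal protein genes. XCON 2 was the lowest in 48 of the 77, against 15.7% of all tested genes. Without any scaling, the genes took 0.137%, 0.157% and 0.157% of all reads in XCKO, against 0.134%, 0.116% and 0.136% in XCON. Taken over reads of nuclear genes alone the shares were 0.152%, 0.173% and 0.181% in XCKO, against 0.173%, 0.128% and 0.149% in XCON, and the groups then overlapped through XCON 1.

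**Figure D1:**
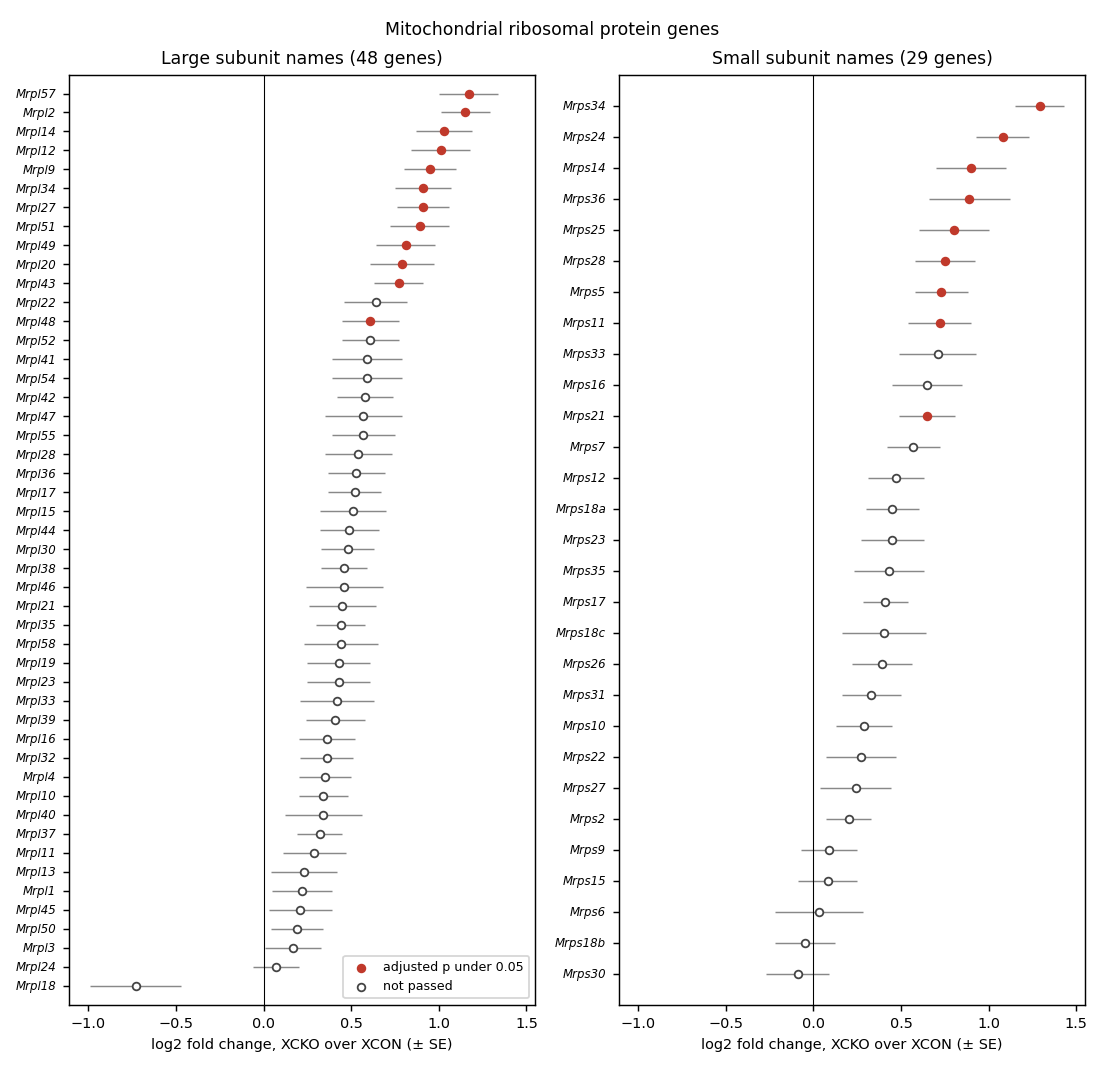
Log2 fold change of XCKO over XCON (x axis, ± SE) for the 77 tested genes, with the 48 large subunit names on the left and the 29 small subunit names on the right, ordered by fold change. Filled red points passed an adjusted p of 0.05 and white points did not; 74 of the 77 lie to the right of 0 and Mrpl18 is the lowest at −0.73.

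Among the large subunit genes, 12 of 48 (25%) were higher in XCKO, with a median log2 fold change of 0.48 over the 48. Mrpl2 (ENSMUSG00000002767, chr17:46646229-46650139, plus strand, mm10) encodes the counterpart of a bacterial protein next to the peptidyl transferase centre. It had 35.0, 34.2 and 41.2 CPM in XCKO, against 15.5, 16.9 and 17.3 CPM in XCON. Each XCKO library was far above the highest XCON library, and the log2 fold change was 1.15 ± 0.14 (adjusted p = 0.0071). Mrpl57 (ENSMUSG00000021967, chr14:57826234-57829296, plus strand), a mitochondria-specific subunit, had 28.4, 25.3 and 29.7 CPM in XCKO, against 14.9, 10.2 and 12.2 CPM in XCON (1.17 ± 0.17, adjusted p = 0.011). Its XCON libraries spread more widely than its XCKO libraries, without overlap between the groups.

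Mrpl14 lies at the interface of the subunits, where the assembly factor MALSU1 binds it in human cells. It had 30.0, 39.2 and 40.9 CPM in XCKO, against 19.9, 16.3 and 17.5 CPM in XCON (1.03 ± 0.16, adjusted p = 0.013). Tmem63b, a gene on the opposite strand that shares 11.2% of the exon bases of Mrpl14, was also higher in XCKO (0.75, adjusted p = 0.041). Mrpl12 forms the stalk that takes up translation factors, and it had 32.2, 36.3 and 47.9 CPM in XCKO, against 20.8, 17.4 and 19.6 CPM in XCON (1.01 ± 0.17, adjusted p = 0.016). Its groups did not overlap, and XCKO 3 stood above the other XCKO libraries.

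Mrpl9 and Mrpl27, whose upstream sequences are given above, were also higher in XCKO. Mrpl9, a counterpart of a bacterial large subunit protein, had 26.8, 27.0 and 32.6 CPM in XCKO, against 16.1, 12.9 and 15.6 CPM in XCON (0.95 ± 0.15, adjusted p = 0.013). Mrpl27, whose bacterial counterpart reaches towards the peptidyl transferase centre, had 25.2, 23.9 and 30.9 CPM in XCKO, against 14.9, 12.8 and 14.9 CPM in XCON (0.91 ± 0.15, adjusted p = 0.016). In both genes the lowest XCKO library exceeded the highest XCON library.

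Mrpl34 had the highest level per listed gene length of all 78 genes. It averaged 54.9 ± 7.7 FPKM in XCKO and 28.5 ± 3.4 FPKM in XCON (SD, n = 3 each). FPKM are the authors' values, which are counts per length of gene, scaled between libraries with median-of-ratios size factors. Mrpl34 had 29.0, 33.4 and 37.7 CPM in XCKO, against 20.3, 17 and 16 CPM in XCON (0.91 ± 0.16, adjusted p = 0.016). Without XCKO 3 its adjusted p was 0.053. Mrpl43, a mitochondria-specific subunit, had 32.1, 29.8 and 36.7 CPM in XCKO, against 20.6, 19.4 and 17.8 CPM in XCON (0.77 ± 0.14, adjusted p = 0.018). It shares 33.4% of its exon bases with Twnk, the mitochondrial helicase gene on the opposite strand, which stood at 0.45 (adjusted p = 0.092). The other 4 were Mrpl51 (0.89), Mrpl49 (0.81), Mrpl20 (0.79) and Mrpl48 (0.61), with adjusted p-values of 0.019, 0.024, 0.034 and 0.046, and they too had every XCKO library above every XCON library. Each of these 4 lost its call in at least 3 of the 6 fits that left out a library.

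**Figure D2:**
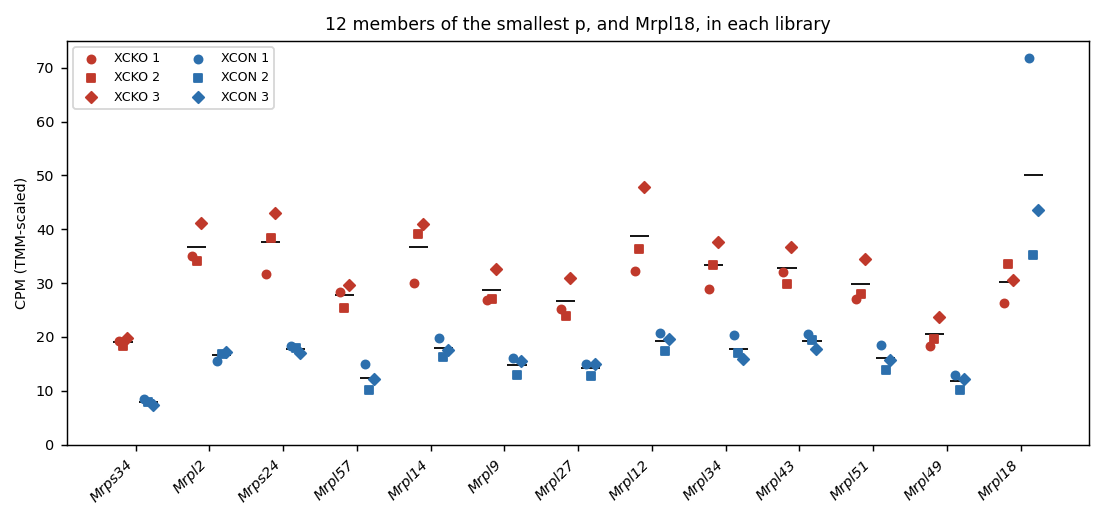
Level in each library (y axis, TMM-scaled CPM) of the 12 genes with the smallest p-values and of Mrpl18, with XCKO in red to the left of XCON in blue, marker shapes for libraries 1 to 3, and a black line at each group mean. The groups do not overlap in any of the 13 genes shown; Mrpl18 is the only one of them with XCKO below XCON, and its highest point is XCON 1 at 71.8 CPM.

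Among the small subunit genes, 9 of 29 (31.0%) were higher in XCKO, with a median of 0.45 over the 29. Mrps34 (ENSMUSG00000038880, chr17:24895116-24897502, plus strand, mm10), a mitochondria-specific protein needed for a stable small subunit in mouse and human, had the largest fold change of all 77 genes. It had 19.3, 18.3 and 19.8 CPM in XCKO, against 8.39, 7.84 and 7.3 CPM in XCON (1.29 ± 0.14, adjusted p = 0.0059). The values were close together within each group. Of its exon bases, 63.4% overlap Mapk8ip3 on the opposite strand. Mapk8ip3 had more reads (6511 against 2055 over the 6 libraries) and a fold change of the other sign (−0.46, adjusted p = 0.17). Nme3, on the same strand, shares 37.0% of the exon bases of Mrps34 and had 0 reads. Strand cannot tell reads of Mrps34 and Nme3 apart where they overlap.

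Mrps24 (ENSMUSG00000020477, chr11:5703983-5715680, minus strand), the counterpart of a bacterial protein at the mRNA entry of the small subunit, had 31.7, 38.3 and 43.1 CPM in XCKO, against 18.4, 17.9 and 17.1 CPM in XCON (1.08 ± 0.15, adjusted p = 0.0096). Its 3 XCON libraries were nearly equal and its XCKO libraries spread more widely. Urgcp, on the same strand, shares 15.4% of the exon bases of Mrps24 and stood at 0.2 (adjusted p = 0.35). Mrps14 and Mrps5, both with bacterial counterparts, followed. Mrps14 had 18.8, 18.7 and 24.8 CPM in XCKO, against 12.7, 8.58 and 12.1 CPM in XCON (0.90 ± 0.20, adjusted p = 0.028), and Mrps5 had 28.3, 33.0 and 32.1 CPM in XCKO, against 16.1, 18.7 and 21.7 CPM in XCON (0.73 ± 0.15, adjusted p = 0.026). The groups did not overlap in either gene. Each passed in 2 of the 6 fits without 1 library, with adjusted p-values up to 0.088 for Mrps14 and 0.077 for Mrps5.

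The calls of Mrps28 (0.75, adjusted p = 0.034), Mrps11 (0.72, adjusted p = 0.041), Mrps25 (0.80, adjusted p = 0.041) and Mrps21 (0.65, adjusted p = 0.042) were closer to the threshold, and each was lost in 5 or 6 of the 6 fits without a library. Mrps25, listed at 6576 bases, had the lowest level per gene length of the tested genes, with 1.0 FPKM over the 6 libraries. By counts alone it was not the lowest, with mean CPM of 8.44 in XCKO and 4.85 in XCON, against 4.28 and 4.2 for Mrps6. Mrps25 shares 69.8% of its exon bases with Nr2c2 on the opposite strand (−0.23, adjusted p = 0.45). Mrps21, the highest of the small subunit genes, averaged 32.0 ± 6.0 FPKM in XCKO and 19.9 ± 0.95 FPKM in XCON (SD, n = 3 each). Mrps36, chosen for mention after its values were seen, had 5.71, 5.71 and 6.66 CPM in XCKO, against 3.0, 3.81 and 2.91 CPM in XCON (0.89 ± 0.23, adjusted p = 0.044). It passed in 0 of the 6 fits without a library, with adjusted p-values up to 0.12. Mrps36 counts among the small subunit names although its product is not a ribosomal protein.

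The genes were also read by class. In the large subunit 7 of 29 genes with a bacterial counterpart and 5 of 19 mitochondria-specific genes were higher in XCKO, with medians of 0.45 and 0.57. In the small subunit these were 6 of 18 and 2 of 10, with medians of 0.46 and 0.41. Differences between the classes and between the subunits were not tested. The 21 genes that passed spanned 0.61 to 1.29, and 6 of them exceeded 1 on the log2 scale. Of the 56 that did not pass, 18 had an adjusted p under 0.1, and in 31 every XCKO library exceeded every XCON library. Mrps12, whose bacterial counterpart lies at the decoding centre, is an example with 20.2, 23.6 and 27.7 CPM in XCKO, against 18.4, 14.9 and 18.3 CPM in XCON (0.47 ± 0.16, adjusted p = 0.099).

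Mrpl18 stood apart from the other genes. Its bacterial counterpart binds a small rRNA of the large subunit. Its gene (ENSMUSG00000057388, chr17:12911349-12916345, minus strand, mm10) had 26.3, 33.6 and 30.5 CPM in XCKO, against 71.8, 35.2 and 43.5 CPM in XCON (−0.73 ± 0.26, adjusted p = 0.10). All 3 XCKO libraries lay below all 3 XCON libraries, but XCKO 2 and XCON 2 were close. Without XCON 1 the value was −0.38 (adjusted p = 0.25). XCON 1 is also the library with the most mitochondrially encoded reads, and the part of that in the Mrpl18 value was not tested. Mrpl18 had the largest ratio of highest to lowest library within a group, 2.04, ahead of Mrpl33 (1.66) and Mrpl15 (1.65). Of its exon bases, 10.1% are shared with Tcp1 on the opposite strand, a subunit gene of the cytosolic chaperonin, which had 18309 reads against 6333 for Mrpl18 and stood at −0.34 (adjusted p = 0.25).

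The other genes with the lowest fold changes were between −0.09 and 0.19. In the large subunit these were Mrpl24 (0.07, adjusted p = 0.74), Mrpl3 (0.17, adjusted p = 0.49) and Mrpl50 (0.19, adjusted p = 0.45), and under the small subunit names Mrps30 (−0.09), Mrps18b (−0.05), Mrps6 (0.03) and Mrps15 (0.08), with adjusted p-values of 0.75, 0.87, 0.96 and 0.79. Mrpl24, for example, had 22.8, 26.1 and 25.5 CPM in XCKO, against 25.1, 22.3 and 23.3 CPM in XCON. The 3 paralogs of the S18 family differed in value, at 0.45 ± 0.15 for Mrps18a (adjusted p = 0.091), −0.05 ± 0.17 for Mrps18b (adjusted p = 0.87) and 0.40 ± 0.24 for Mrps18c (adjusted p = 0.29). None of the 3 passed, and the differences between them were not tested. Mrpl53 had no read in any library and was the gene not tested. Of its 790 exon bases, 88.0% are shared with Gm42688 on the same strand, which had 125 reads.

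Levels per length ranged widely within the family. Over the 6 libraries the mean FPKM of the 77 genes ran from 1.0 to 41.7 with a median of 6.83, and the median was 8.07 for the large and 4.98 for the small subunit names. After Mrpl34 came Mrpl14 (28.5 FPKM), Mrpl18 (28.2 FPKM), Mrps21 (25.9 FPKM) and Mrpl2 (22.6 FPKM). The median gene had 7.82 FPKM in XCKO and 5.49 FPKM in XCON. Mrpl18 was at 21.5 ± 2.4 FPKM in XCKO and 34.9 ± 13 FPKM in XCON (SD, n = 3 each).

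The number of genes called depended on each library. Leaving out XCKO 3 left 8 genes higher, and leaving out XCON 1, 2 or 3 left 11, 10 or 10, while without XCKO 1 or 2 there were 18 or 15. Over all genes the share higher in XCKO was then 1.15% without XCKO 3, 1.88%, 2.51% and 2.33% without XCON 1, 2 and 3, and 2.63% and 3.38% without XCKO 1 and 2. The 8 genes that passed in all 6 of these fits were Mrpl2, Mrpl9, Mrpl12, Mrpl14, Mrpl27, Mrpl57, Mrps24 and Mrps34. Mrpl2, Mrpl57, Mrps24 and Mrps34 passed in all 18 alternative settings, with adjusted p-values of at most 0.048. When libraries were scaled by their totals alone, 11 genes were higher (background 2.19%) and Mrpl18 was lower (−0.99, adjusted p = 0.036, background 13.7%), the median of all genes moved to −0.31 and that of the mitochondrial ribosomal protein genes to 0.19, so that the distance between the medians was 0.50, against 0.51 in the TMM-scaled fit. In that scaling 63 of the 77 were positive.

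**Figure D3:**
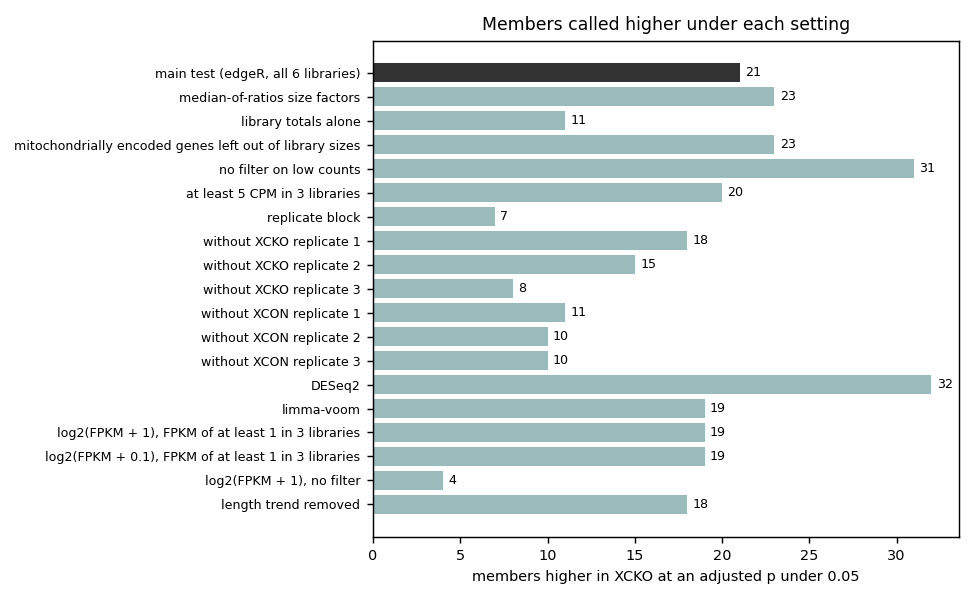
Number of the mitochondrial ribosomal protein genes higher in XCKO at an adjusted p under 0.05 (x axis) in the TMM-scaled edgeR test (dark bar, 21 genes) and in the 18 alternatives (light bars). The counts run from 4, on log2(FPKM + 1) without a filter, to 32 with DESeq2.

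In the authors' deposited table, 30 of the 77 genes were higher in XCKO and 0 were lower at their adjusted p under 0.05, and all 21 genes called here are among the 30. Over all genes of the authors' deposited table, 5.51% were higher.

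Fold changes in these libraries ran with gene length, and mitochondrial ribosomal protein genes are short. Their median length was 2255 bases, against 3976 bases for all tested genes, and 1664 bases for the 21 that passed, against 2606.5 bases for the other 56. Over all genes, the median log2 fold change was 0.21 in the shortest decile of genes by length and −0.25 in the longest, and 10.9% and 0.874% were higher in XCKO. Of the 16 mitochondrial ribosomal protein genes in the shortest decile, 7 were higher, with a median of 0.63, and of the 15 in the next decile 5 were higher, with a median of 0.49, against medians of 0.21 and 0.16 and shares of 10.9% and 10.6% for all genes of those deciles. With the length trend removed from every library, the median was 0.39, 72 of 77 were positive and 18 were higher (background 4.22%), 16 of them among the 21. Mrpl20, Mrps11, Mrps21, Mrps28 and Mrps36 then had adjusted p-values of 0.059, 0.064, 0.13, 0.11 and 0.11.

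**Figure D4:**
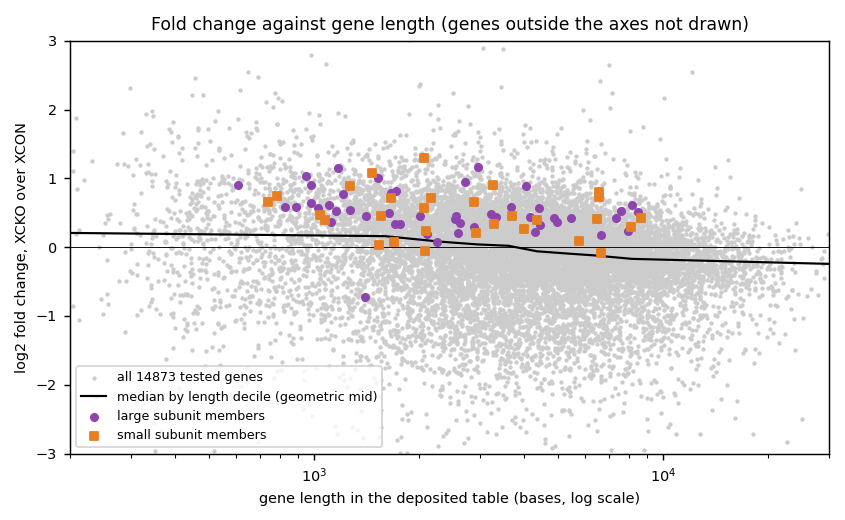
Log2 fold change of XCKO over XCON (y axis) against the gene length in the deposited table (x axis, bases, log scale) for 14873 tested genes in grey, with large subunit genes as purple circles and small subunit genes as orange squares; the black line joins the medians of all genes by length decile. The line runs from 0.21 at the short end to −0.25 at the long end, and 72 of the 77 coloured points are positive when this trend is removed, against 74 before.

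Markers of other liver cells also differed between the groups. For the counts below, the shares of all genes lower in XCKO were 4.05% in edgeR's test and 8.33% with DESeq2. They were 13.7% with totals alone and 15.4% at an unadjusted p under 0.05. The shares higher were 5.21% in edgeR's test, 9.52% with DESeq2 and 14.3% at an unadjusted p under 0.05. The 10 macrophage markers had a summed level of 767, 325 and 950.3 CPM in XCKO, against 1389, 1853 and 954 CPM in XCON, with all 10 negative and 1 lower at an adjusted p under 0.05 (6 with DESeq2 and 6 with totals alone). The 9 stellate cell markers summed to 256, 103 and 155 CPM in XCKO, against 259, 483 and 607 CPM in XCON, with all 9 negative and 3 lower (7 with DESeq2 and 6 with totals alone). The 5 cholangiocyte markers summed to 89.2, 82.4 and 162 CPM in XCKO, against 582, 251 and 272 CPM in XCON, with all 5 negative and none called in edgeR's test (5 at an unadjusted p under 0.05, and 4 called by DESeq2). The 7 sinusoidal endothelial markers had a median of 0.01 (−0.25 with totals alone) and no call, and 0 at an unadjusted p under 0.05 or with DESeq2. Erythroid markers summed to 407, 77.4 and 939.6 CPM in XCKO, against 42.3, 43.5 and 69.95 CPM in XCON, with a median of 4.45 over 5 tested; none was called by edgeR, 5 had an unadjusted p under 0.05 and DESeq2 called 5. XCKO 3, highest in most of the ribosomal protein genes, was also highest in these. T cell markers summed to 2.11, 0.738 and 3.93 CPM in XCKO, against 12.5, 7.52 and 2.33 CPM in XCON, and B cell markers to 2.19, 1.71 and 3.42 CPM in XCKO, against 10.8, 3.81 and 1.62 CPM in XCON. Neutrophil markers summed to 30.4, 5.24 and 71.3 CPM in XCKO, against 34.4, 26.9 and 14.9 CPM in XCON. No marker of these 3 types was called by edgeR, with 1 of each lower at an unadjusted p under 0.05, and DESeq2 called 1 neutrophil marker lower. Of the 10 hepatocyte markers, all 10 were positive, with a median of 0.40 and no call in edgeR's test, although 4 had an unadjusted p under 0.05 and DESeq2 called 4. No marker of these lists was at 0 in all 6 libraries. The part of cell composition in the values of the mitochondrial ribosomal protein genes was not tested.

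The rRNAs that these proteins bind are encoded by the mitochondrial genome. The small subunit rRNA, mt-Rnr1, had 482, 412 and 345 CPM in XCKO, against 466, 331 and 315 CPM in XCON (0.16 ± 0.22, adjusted p = 0.66). The large subunit rRNA, mt-Rnr2, had 1100, 802 and 840 CPM in XCKO, against 1490, 896 and 1400 CPM in XCON (−0.46 ± 0.24, adjusted p = 0.24). The groups overlapped for both rRNAs, while the summed levels of both sets of proteins did not overlap. The rRNA counts were low beside those of a mitochondrial mRNA. In XCKO and XCON, mt-Rnr1 averaged 432 and 378 FPKM and mt-Rnr2 577 and 777 FPKM, against 28400 and 32600 FPKM for mt-Co1. Selection of RNA during library making can change rRNA counts. Its part here was not tested, so these counts may not follow the rRNA level. Large subunit genes summed to 1018, 1085 and 1261 CPM in XCKO, against 855, 711 and 809 CPM in XCON. Small subunit genes summed to 482, 531 and 588 CPM in XCKO, against 374, 355 and 405 CPM in XCON.

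**Figure D5:**
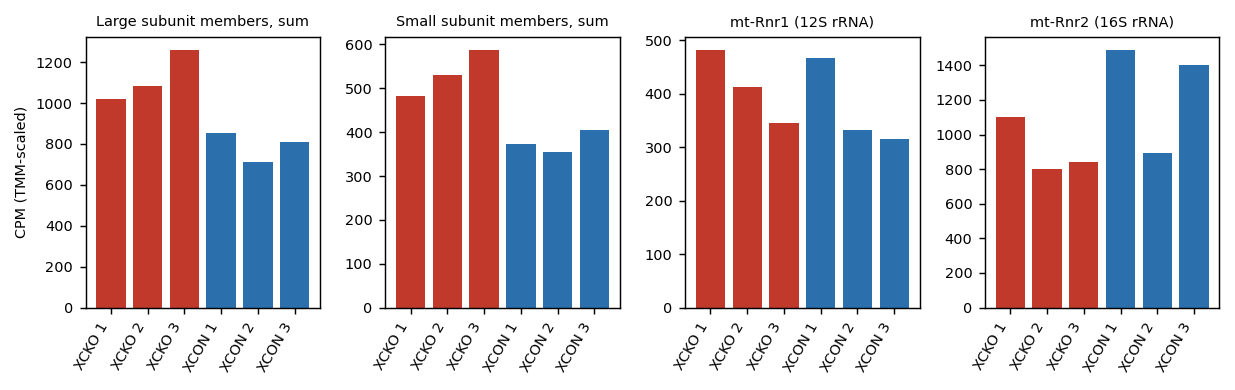
TMM-scaled CPM (y axis) in each of the 6 libraries, XCKO in red to the left and XCON in blue, for the summed large subunit genes, the summed small subunit genes, mt-Rnr1 and mt-Rnr2. The bars of the protein genes are higher in each XCKO library (482 to 588 CPM for the small subunit) than in each XCON library (355 to 405 CPM), whereas those of the rRNAs overlap. Whether the rRNA counts follow the rRNA level was not tested.

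Of the 15 mitochondrially encoded genes that were tested, mt-Atp8, for an ATP synthase subunit, was the only one to pass, at 6.72, 3.53 and 7.82 CPM in XCKO, against 0.924, 0.477 and 0.541 CPM in XCON (3.21 ± 0.42, adjusted p = 0.0084). It overlaps mt-Atp6 on the same transcript and had 24 reads or fewer in each XCON library, so its count is uncertain. The 1 gene that passed makes 6.67% of the 15, near the background of 5.21%. DESeq2 and limma-voom each called 2 higher (background 9.52% and 5.49%) and 0 lower. The median of the 15 was 0.04 (−0.24 with totals alone), with 8 positive, 7 negative and a range from −0.46 to 3.21.

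Mitoribosomal proteins whose gene names fall outside the Mrpl and Mrps pattern were listed separately, 5 in all. Gadd45gip1, a large subunit protein, had 14.2, 13.5 and 18.5 CPM in XCKO, against 8.5, 8.1 and 8.11 CPM in XCON (0.90 ± 0.17, adjusted p = 0.021). Aurkaip1, a small subunit protein, had 36.3, 34.2 and 46.8 CPM in XCKO, against 25.5, 21.4 and 26.8 CPM in XCON (0.67 ± 0.17, adjusted p = 0.040). Both were higher in XCKO without overlap. Gadd45gip1 passed in 2 and Aurkaip1 in 1 of the 6 fits without 1 library, with adjusted p-values up to 0.062 and 0.10, and Aurkaip1 was at 0.071 with the length trend removed. The small subunit genes Chchd1 (0.45, adjusted p = 0.15), Ptcd3 (0.16, adjusted p = 0.47) and Dap3 (0.09, adjusted p = 0.69) did not pass.

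The factors that build and run the mitochondrial ribosome were listed too. Of 25 assembly factors, 2 (8.0%) were higher, close to the 5.21% of all genes, and none lower, with a median of 0.21 (−0.06 with totals alone). These were Rbfa, a maturation factor of the small subunit (0.64 ± 0.15, adjusted p = 0.036), and Mtg1, a GTPase of large subunit assembly (0.66 ± 0.17, adjusted p = 0.045). Of the 6 fits without 1 library, Rbfa passed in 1 and Mtg1 in 0, with adjusted p-values up to 0.10 and 0.13, and Rbfa was at 0.12 with the length trend removed. Of 15 translation factors tested, 2 (13.3%) were higher and none lower, with a median of 0.29 (0.02 with totals alone). Tufm, the elongation factor that delivers aminoacyl-tRNA, had 73.7, 80.2 and 85.9 CPM in XCKO, against 46.5, 50.6 and 61.1 CPM in XCON (0.60 ± 0.16, adjusted p = 0.046). Tufm passed in 0 of the 6 fits without 1 library, with adjusted p-values up to 0.13, and was at 0.09 with the length trend removed. Taco1, a translational activator of cytochrome c oxidase subunit I, had 13.4, 16.1 and 18.6 CPM in XCKO, against 7.54, 7.51 and 9.67 CPM in XCON (0.96 ± 0.19, adjusted p = 0.022), and passed in 3 of those 6 fits. The elongation factors Gfm1 (0.58, adjusted p = 0.062) and Tsfm (0.51, adjusted p = 0.093), the recycling factor Mrrf (0.31), the initiation factor Mtif2 (−0.06) and the inner membrane insertase Oxa1l (0.14) did not pass. At an unadjusted p under 0.05, 9 of the 25 assembly factors and 4 of the 15 translation factors were higher, against 14.3% of all genes, and 0 of either list were lower, and DESeq2 called 5 and 3 higher, against 9.52% of all genes.

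The 11 genes of mitochondrial DNA transcription and replication were all positive in the TMM-scaled fit, with a median of 0.43 (0.18 with totals alone). None passed in edgeR's test, in DESeq2 or in limma-voom, although 5 were higher at an unadjusted p under 0.05, against 14.3% of all genes. With the length trend removed, 1 was higher (background 4.22%), namely Polg (0.54, adjusted p = 0.038). Tfam, which packages mitochondrial DNA and starts its transcription, had 33.1, 35.3 and 48.0 CPM in XCKO, against 23.9, 30.7 and 25.8 CPM in XCON (0.53 ± 0.18, adjusted p = 0.09). Polrmt, the mitochondrial RNA polymerase, had 30.9, 34.5 and 28.9 CPM in XCKO, against 21.7, 26.0 and 23.2 CPM in XCON (0.41 ± 0.14, adjusted p = 0.091).

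Of 10 transcriptional regulators of mitochondrial biogenesis, Esrra was the only one to pass (10%, background 5.21%). The list had 3 positive and 7 negative fold changes, with a median of −0.17 (−0.43 with totals alone). Esrra, an orphan nuclear receptor, had 34.5, 49.2 and 47.1 CPM in XCKO, against 15.6, 25.9 and 17.5 CPM in XCON (1.15 ± 0.22, adjusted p = 0.021), and it passed in 3 of the 6 fits without 1 library, with adjusted p = 0.066 without XCKO 3. Its coactivator Ppargc1a had 14.1, 8.85 and 5.27 CPM in XCKO, against 10.6, 6.16 and 16.9 CPM in XCON (−0.26 ± 0.44, adjusted p = 0.73), and its groups overlapped. The factors whose motifs were counted in the promoters did not pass, with Nrf1 at −0.01, the GABP subunit gene Gabpa at 0.12 and Yy1 at 0.24. Myc had 7.85, 3.73 and 12.8 CPM in XCKO, against 18, 11.7 and 68.4 CPM in XCON (−2.01 ± 0.82, adjusted p = 0.17). Among the mitochondrial ribosomal protein genes, the median fold change was 0.41 with an NRF1 match and 0.47 without, 0.45 with an ETS match and 0.48 without, and 0.49 with a YY1 match and 0.47 without. Of the 19 called genes with a window, 6 held the ETS motif, against 17 of the 49 others tested.

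Cytosolic ribosomal proteins, which build the other ribosome of the cell, were measured in the same libraries. Of 81 tested, 7 (8.64%) were higher (background 5.21%) and 1 was lower (background 4.05%), with a median of 0.35. The fold change was positive in 72 and negative in 9, against 46.5% positive over all genes. Every XCKO library lay above every XCON library in 29, against 17.6% of all genes, and the reverse held for 3, against 18.1%. DESeq2 called 22 higher (background 9.52%) and 2 lower (background 8.33%). At an unadjusted p under 0.05, 30 were higher (background 14.3%) and 3 were lower (background 15.4%). With the length trend removed the median was 0.22 and 2 were higher (background 4.22%). With libraries scaled by totals alone the median was 0.07. Many cytosolic ribosomal protein genes share reads with pseudogenes, and their counts are uncertain. The difference between both families was not tested.

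Many mitochondrial ribosomal protein genes start close to another gene. A protein-coding gene that runs the other way started within 1000 bases of 23 of the 77 (29.9%), against 1483 of 12969 tested protein-coding genes (11.4%). The 22 neighbours that were tested had a median of −0.02, with 10 positive (46.5% over all genes). Of these 22, 1 was higher (background 5.21%) and 1 was lower (background 4.05%), close to the shares over all genes. The higher neighbour was Ndufs6, a complex I subunit gene next to Mrpl36 (1.37, adjusted p = 0.0071), and the lower was Ncapd2, a condensin gene next to Mrpl51 (−0.93, adjusted p = 0.023). The neighbour of Mrps34, Eme2, starts 29 bases away and stood at −0.43 (adjusted p = 0.26). That of Mrpl57, Ska3, starts 49 bases away and stood at −1.32 (adjusted p = 0.14), and that of Mrpl2, Klc4, starts 207 bases away and stood at 0.58 (adjusted p = 0.061). Genes of such pairs had a median of 0.49, with 7 of 23 higher, and the genes without a neighbour a median of 0.45, with 14 of 54 higher.

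The sources used here do not say if counting took strand into account, so reads of overlapping genes cannot be told apart. Of the 77 tested genes and Mrpl53, 33 share exon bases with another gene in GENCODE M21, among them 12 of the 21 that passed. In 9 the shared part was over 20% of the exon bases, and 3 of these passed, namely Mrps34, Mrps25 and Mrpl43.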

How the data were processed

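Per the labels' protocols, hepatocyte RNA was extracted with Trizol and made into libraries with a NEBNext Ultra RNA kit; Bowtie 0.12.2 and, with no role stated, both mm8 and mm10 are listed in the submitters' processing notes. The table the authors deposited has, per gene, raw counts and FPKM of each library, and their own group mean signal, log2 fold change, p-value and adjusted p-value; the sources used here name no read counter. FPKM came out as counts over length and a library size from median-of-ratios size factors, not from each library's own total. The 11 gene names stored as dates were restored. Of the identifiers, 99.9% were found in GENCODE M21 and 98.3% with the same mm10 coordinates (73 of the 78 members).

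Counts were tested with edgeR 4.0.16 (R 4.3.3, TMM, filterByExpr, robust quasi-likelihood F test, 2-sided) over all genes, with Benjamini-Hochberg adjustment at 0.05. The fits were first run on simulated counts. These varied less between libraries than the data and held no length trend, so that check does not cover either. DESeq2 1.42.0, limma 3.58.1 (voom, and log2 of FPKM plus 1 or 0.1) and other scalings, filters and library choices, 18 settings in all, were the alternatives. CPM is TMM-scaled and used within a gene; FPKM is used between genes. Library totals were 23919355 to 27240079 counts, and the biological coefficient of variation was 25.8%. No 2 libraries of the same group were duplicates, and pairs across the groups were not checked. The labels do not say if replicate numbers pair the libraries, and the edgeR fit took the libraries as unpaired.

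The genes and lists were chosen with earlier results of these data known. Named were the 12 large and 8 small subunit genes of smallest p, 4 per subunit of highest FPKM and of lowest fold change, the 3 of largest spread within a group, unmeasured genes, and fixed pathway genes. The translation factor Mtrfr was not matched.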

Additional observations from a re-analysis of the deposited data

How the results depend on the processing

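Over all genes, 1378 calls in the edgeR fit became 2358 with library totals alone, 2160 with no filter on low counts, 2653 with DESeq2, 214 on log2(FPKM + 1) with no filter, and 309 to 810 without 1 library. With totals alone, 13.8% of all calls were higher in XCKO, against 56.2% in the TMM-scaled fit, and the median of all genes shifted by −0.26; the FPKM settings put 72.1% to 78.0% of calls higher, with 19, 19 and 4 of the mitochondrial ribosomal protein genes, against 8.04%, 7.7% and 0.628% of all genes in those settings. Of these genes, 21 higher became 11 with totals alone, 32 with DESeq2, 4 on FPKM without a filter and 8 to 18 without 1 library. The count lower, 0, became 1 (Mrpl18) with totals alone and with no filter. For large subunit names, 12 higher became 19 with no filter, 20 with DESeq2, 2 on FPKM without a filter and 6 to 13 without 1 library. For small subunit names, 9 became 2 with totals alone, 2 on FPKM without a filter and 2 to 5 without 1 library. The median of 0.46 became 0.19 with totals alone.

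With the replicate number as a block, 322 genes were called, among them 7 mitochondrial ribosomal protein genes higher (5 large and 2 small), against 1.48% of all genes. Same-numbered libraries did not deviate together (correlations of 0.055, 0.076 and −0.168). With 3 libraries a group these correlations cannot decide if libraries were paired, and the labels do not say so.

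Of the values of single named genes, 820 kept their side of the threshold, 156 lost a call, 7 gained one and 36 changed sign; none that changed sign passed the test. With totals alone these were Mrpl24 (−0.19), Mrpl3 (−0.08), Mrpl50 (−0.08), Mrps6 (−0.24), Mrps15 (−0.19), mt-Rnr1 (−0.10), Dap3 (−0.17), Ptcd3 (−0.11), Oxa1l (−0.12), Gabpa (−0.14) and Yy1 (−0.02). With the length trend removed these were Mrpl24 (−0.05), Mrps30 (0.01), Mrps6 (−0.18), Mrps15 (−0.12), mt-Rnr1 (−0.09) and Nrf1 (0.19). Without 1 library, Mrps30 ran from −0.20 to 0.05, Mrps18b from −0.18 to 0.05, Mrps6 from −0.08 to 0.24, Mtif2 from −0.11 to 0.00, Ppargc1a from −0.66 to 0.17 and Nrf1 from −0.07 to 0.15. On FPKM, Mrps18b was 0.00 and 0.01 and Nrf1 0.01, and Nrf1 was 0.02 with size factors, with no filter and with DESeq2. The causes of these differences were not tested. With 3 libraries a group, no mitochondrial ribosomal protein gene under a log2 fold change of 0.61 passed in the edgeR fit, so the calls cover the larger differences only.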
